A study of Talinum fruticosum with 36 samples.

Results

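Talinum triangulare is a leafy herb in which drought induces crassulacean acid metabolism (CAM) in place of C3 photosynthesis, and its leaves were compared between midnight and midday on the second day of recovery from drought. The comparison used 6 of the 36 samples of the series, 3 libraries from midnight and 3 from midday, chosen by their labels alone. The re-watered plants had grown well-watered for 28 days, gone 12 days without water and been watered again for 2 days. Midnight was 6 hours into the dark phase and midday 6 hours into the light phase. The labels gave the re-watered leaves the photosynthetic mode C3, as for well-watered plants at day 0, while leaves after 12 days of drought carried the mode CAM. The midnight-midday difference was set against that of day 0 and that of day 12, each from 3 libraries per time of day. No genotype or treatment other than water supply was labelled. The submitters call the 3 libraries of a group biological replicates and do not say how many plants each one held.

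In a CAM leaf, phosphoenolpyruvate carboxylase fixes CO2 at night into malate, which is stored in the vacuole and broken down by day to feed the Calvin-Benson cycle behind closed stomata. Starch or sugar broken down at night supplies the acceptor for this reaction. In a C3 leaf CO2 is fixed by day, starch is made by day and broken down at night, and a circadian clock of interlocking repressors sets many transcripts to a given hour. Light-harvesting and chlorophyll genes are among the best known outputs of light and clock.

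Each value is the level of an Arabidopsis thaliana locus, since the authors assigned each Talinum read to its best Arabidopsis match. Locus names and roles below are those of the Arabidopsis match. Levels are in CPM, counts scaled to a common library total with TMM factors, and not corrected for gene length, so that they are compared between samples and not between loci. Values given after "at" or "by" for a named locus are log2 fold changes of midnight over midday. The re-watered libraries held 6627526 to 8137123 counts. A count of 3 corresponded to 0.369 to 0.453 CPM in them. The midnight libraries were alike, with log2 levels correlating at 0.985 to 0.987 over all loci tested. The midday libraries were less alike, at 0.951 to 0.978, and midday replicate 3 stood apart: its 10 most abundant loci held 12.6% of its counts, against 23.5% and 20.3% in midday replicates 1 and 2. No pair of replicates differed as little as sampling noise.

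Leaf transcripts differed widely between midnight and midday after re-watering. Of 14052 loci tested, 6618 (47.1%) were called at an adjusted p under 0.05 in edgeR's quasi-likelihood test, 3315 (23.6%) higher and 3303 (23.5%) lower at midnight. The median log2 fold change of all loci was 0.03. Among the called loci, 1357 rose and 1632 fell by at least 2-fold at midnight, while 74 rose and 238 fell by at least 8-fold, so that the deepest differences were mostly decreases. All 3 midnight libraries lay above all 3 midday libraries at 4069 loci (29%) and below them at 3662 (26.1%). In such bulk leaf samples, fewer cells of a kind and less RNA per cell cannot be told apart.

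The locus with the largest increase under the naming rule was AT1G67550, urease, the enzyme that releases ammonia from urea. It had 305, 354 and 321 CPM at midnight, against 2.08, 3.75 and 3.69 CPM at midday (log2 fold change 6.65 ± 0.36, adjusted p = 1.60e-13). AT4G28240, annotated as a wound-responsive protein, had 156, 168 and 107 CPM at midnight and 4.17, 2.02 and 3.08 CPM at midday (log2 fold change 5.55 ± 0.48, adjusted p = 1.34e-09). The groups stood far apart at both loci. AT1G21000, a PLATZ transcription factor, rose by 5.58 on the log2 scale, AT2G15890, annotated as a maternal effect embryo arrest protein, by 4.76, and AT1G80920, a DnaJ-domain chaperone, by 4.75. AT5G04260, the thioredoxin WCRKC2, rose by 4.54, AT1G18170, an FKBP-type peptidyl-prolyl isomerase, by 4.56, and AT3G29240, of unknown function, by 4.09. The other increases that the rule named were clock loci and LSF1, described below. In CPM, the largest increases were at RCA, GLDP2, GLU1, the peroxidase AT4G21960 and the tetratricopeptide repeat protein AT4G28080. The last of these had 2569, 2110.0 and 2238 CPM at midnight, against 309, 145 and 156 CPM at midday (log2 fold change 3.5 ± 0.45, adjusted p = 6.88e-07). Of the 12 largest decreases, 10 were at loci of light-harvesting proteins. The other two were AT1G14210, a ribonuclease of the T2 family, and AT1G70260, a transporter of the nodulin MtN21 family. AT1G14210 had no count in any midnight library and 33.5, 28.3 and 3.94 CPM at midday, at least 177-fold lower at midnight against a floor of 3 counts over the 3 midnight libraries.

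**Figure D1:**
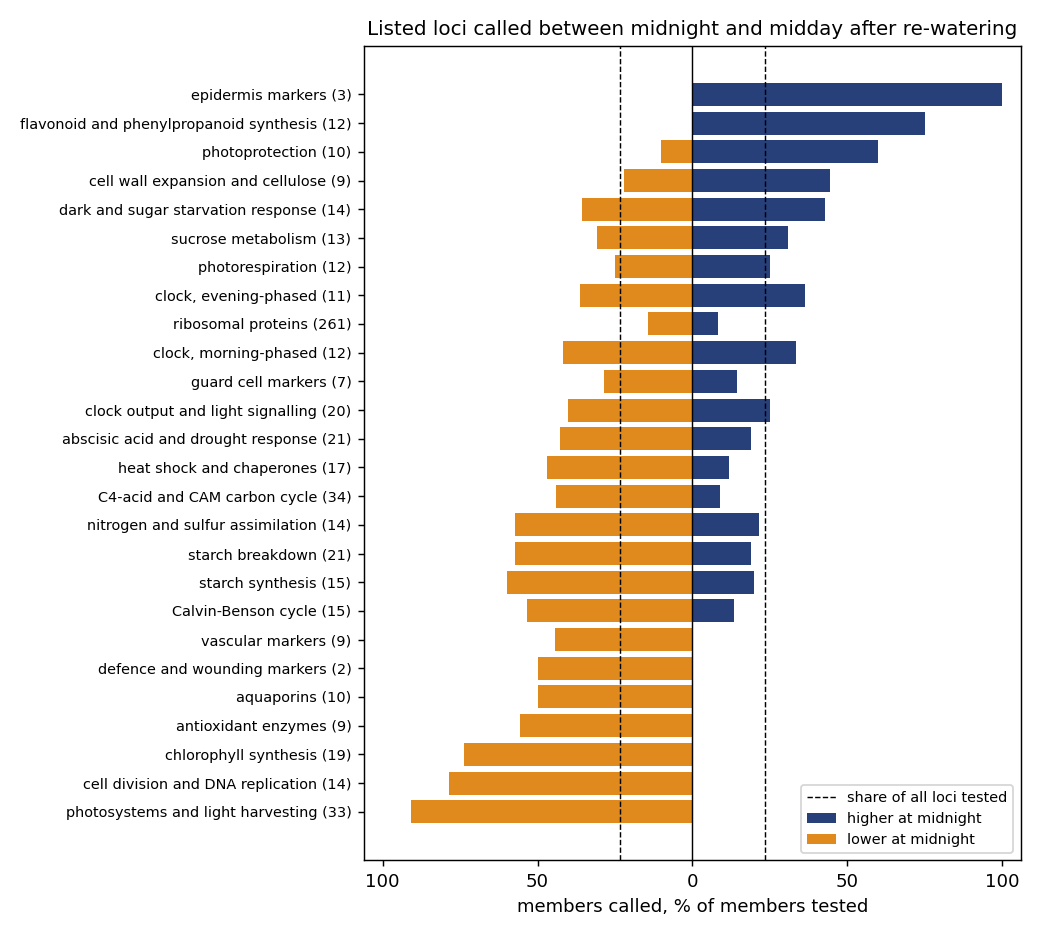
Share of each list's tested members called higher (right) or lower (left) at midnight than at midday after re-watering, in percent, with the number tested in brackets; dashed lines mark the shares of all 14052 loci, 23.6% and 23.5%. Flavonoid and photoprotection loci lie mostly to the right, photosystem, chlorophyll and cell division loci to the left.

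Core clock transcripts were among the largest differences in both directions. In the list of 12 tested morning-phased loci, 4 rose and 5 fell at midnight, with a median log2 fold change of -0.11. In that of 11 evening-phased loci, 4 rose and 4 fell, with a median of 0.12. Over all loci 23.6% rose and 23.5% fell. TOC1, the pseudo-response regulator that closes the evening arm of the clock, had 82.1, 89.6 and 85.2 CPM at midnight, against 4.17, 3.18 and 3.45 CPM at midday (log2 fold change 4.58 ± 0.20, adjusted p = 1.32e-15). The 2 groups did not overlap, as at 29% of all loci with midnight above, and TOC1 was 23.9-fold higher at midnight. RVE1, a MYB-like factor that promotes auxin synthesis, had 20.5, 22.4 and 25.6 CPM at midnight, against 1.39, 1.01 and 0.739 CPM at midday (log2 fold change 4.47 ± 0.29, adjusted p = 1.98e-12). Its relatives RVE2 and RVE8 rose by 4.68 and 1.45 on the log2 scale. ELF4, part of the evening complex that represses day genes at night, had 9.27, 8.50 and 9.52 CPM at midnight, against 0, 0.144 and 0.369 CPM at midday (log2 fold change 5.45 ± 0.55, adjusted p = 6.55e-09). LUX, its DNA-binding partner, rose by 1.24 (adjusted p = 0.00245), and CHE, a TCP repressor of CCA1, by 0.70 (adjusted p = 0.00196). ELF3, the third member of the complex, did not pass the test at 0.44 ± 0.20.

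The pseudo-response regulators other than TOC1 fell at midnight. PRR3 had 0.644, 0.479 and 0.247 CPM at midnight, against 60.1, 61.6 and 59.2 CPM at midday (log2 fold change -7.0 ± 0.37, adjusted p = 3.85e-14). PRR9 had 0.515, 0.479 and 0.618 CPM at midnight, against 64.6, 53.3 and 75.2 CPM at midday (log2 fold change -6.86 ± 0.34, adjusted p = 7.24e-15). PRR7 and PRR5 fell, at -3.60 and -3.26 on the log2 scale. Of these proteins, PRR9, PRR7 and PRR5 repress CCA1 and LHY. The coactivators that work with the RVE8 family fell too: LNK2 had 0.773, 0.599 and 0.371 CPM at midnight, against 98.2, 78.7 and 76.3 CPM at midday (log2 fold change -7.14 ± 0.31, adjusted p = 1.32e-15), and LNK1 and LNK3 fell, at -5.59 and -4.79. GI, which links the clock to flowering, had 51.4, 40.5 and 41.8 CPM at midnight, against 185, 224 and 298 CPM at midday (log2 fold change -2.40 ± 0.20, adjusted p = 1.28e-10). FKF1, a blue-light receptor of the GI pathway, fell, at -1.0 (adjusted p = 0.0213), but without midday replicate 3 its adjusted p was 0.112, and it also lost its call without midday replicate 2 or midnight replicates 1 or 3. CCA1 and LHY, the dawn repressors, did not pass the test, with 35.9, 42.0 and 43.5 CPM at midnight and 36.8, 35.9 and 28.9 CPM at midday for CCA1 and log2 fold changes of 0.26 ± 0.20 and -0.11 ± 0.19. RVE6 did not pass the test either (-0.11 ± 0.14). RVE7 had 1.16, 0.838 and 1.24 CPM at midnight and no count in the midday libraries, at least 7.48-fold higher at midnight.

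**Figure D2:**
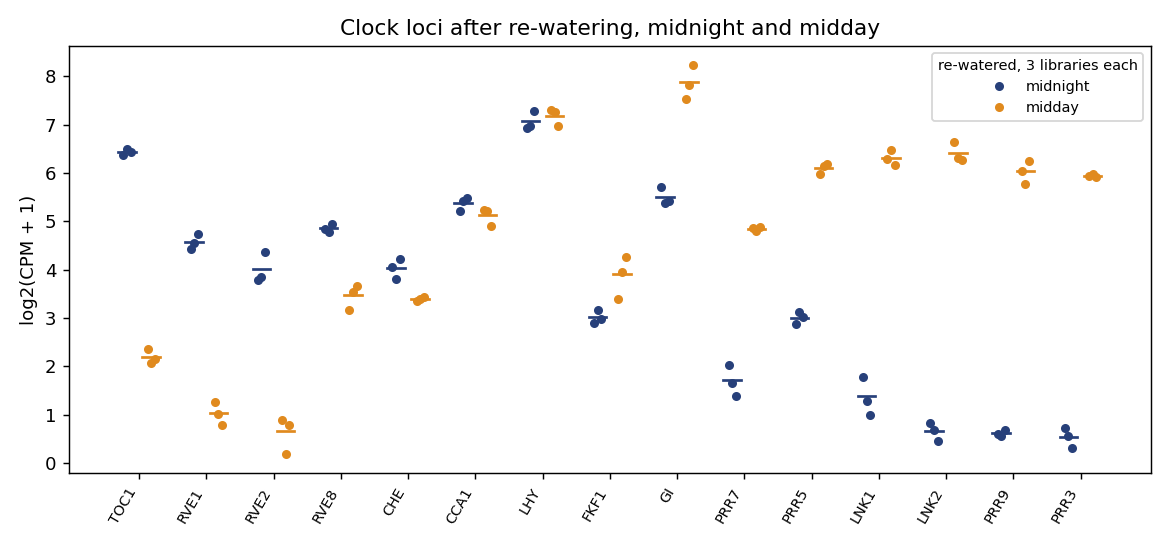
Levels of 15 clock loci after re-watering as log2(CPM + 1), each dot 1 library, midnight left of midday, with a bar at the log2 of the group mean + 1. TOC1, RVE1, RVE2 and RVE8 lie higher at midnight, PRR9, PRR3, LNK1 and LNK2 higher at midday, and CCA1 and LHY overlapping.

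Among 20 tested loci of clock output and light signalling, 5 rose and 8 fell at midnight, against 23.6% and 23.5% of all loci. The photoreceptors CRY1 and PHYA rose by 0.89 and 0.76 on the log2 scale, and HYH, a bZIP factor of light responses, by 2.53. BBX24, a B-box repressor of light responses, had 4.12, 6.71 and 9.64 CPM at midnight, against 93.1, 127 and 93.3 CPM at midday (log2 fold change -3.93 ± 0.25, adjusted p = 1.06e-12). CDF3 and CDF2, Dof repressors of flowering, fell, at -2.20 and -1.49.

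Photosystem and light-harvesting loci fell almost throughout. Of 33 tested members, 30 fell and none rose at midnight, against 23.5% and 23.6% of all loci. The median log2 fold change of the list was -3.31. The 30 include LHCB2.2 and LHCB2.3, whose counts may come from the same transcripts. LHCB1.2, a major antenna protein of photosystem II, had 79.3, 30.2 and 42.9 CPM at midnight, against 77089, 60818 and 24307 CPM at midday (log2 fold change -10.06 ± 0.84, adjusted p = 4.76e-10). LHCB3, a second subunit of that antenna, had 8.76, 1.2 and 4.2 CPM at midnight, against 9597, 8396 and 3119.5 CPM at midday (log2 fold change -10.55 ± 1.01, adjusted p = 1.06e-08). LHCA1, an antenna protein of photosystem I, had 11.3, 4.91 and 7.42 CPM at midnight, against 8413, 7702 and 3176 CPM at midday (log2 fold change -9.67 ± 0.56, adjusted p = 4.00e-13). The groups were separated by more than the spread of the midday libraries, although midday replicate 3 held the lowest midday level at all of them. The fold differences were 1065 for LHCB1.2, 1497 for LHCB3 and 816 for LHCA1. LHCA4, LHCB2.3, LHCB2.2, LHCB6, LHCA3, LHCB5 and LHCA2 fell, at -10.55, -9.75, -9.72, -9.52, -8.61, -7.32 and -7.01 on the log2 scale. AT5G28450, annotated as a chlorophyll a-b binding protein, fell, at -7.25. LHCB4.2 and LHCB4.3, of the minor antenna CP29, fell less, at -3.98 and -2.27.

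Core and electron transport subunits fell as well. PSBO2, of the oxygen-evolving complex, had 2514, 2067 and 2023 CPM at midnight, against 15982, 12422 and 5579 CPM at midday (log2 fold change -2.36 ± 0.27, adjusted p = 4.53e-08). PSBP1, its neighbour in that complex, fell, at -3.72, PSAD2 of photosystem I at -3.13, and plastocyanin PETE2 at -1.57. PSBS, the protein of energy-dependent quenching, fell, at -2.20. The 3 members that did not pass the test were PETC, the Rieske protein, at -0.23 ± 0.20, and the ferredoxin-NADP reductases FNR1 and FNR2, at 0.22 ± 0.19 and 0.25 ± 0.19. Without midday replicate 3, 31 members fell. The summed level of the 33 members was 22665, 17761 and 19371 CPM at midnight, against 285744, 235597 and 99564 CPM at midday.

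Chlorophyll synthesis fell along most of its path, with 14 of 19 tested members lower and none higher at midnight and a median of -1.55. Over all loci, 23.5% were lower and 23.6% higher. CAO, which makes chlorophyll b, had 4.38, 4.43 and 3.58 CPM at midnight, against 531, 356 and 195 CPM at midday (log2 fold change -6.44 ± 0.37, adjusted p = 4.00e-13). GUN4, the activator of magnesium chelatase, had 7.34, 6.23 and 7.29 CPM at midnight, against 245, 173 and 64.2 CPM at midday (log2 fold change -4.53 ± 0.39, adjusted p = 1.11e-09). CHLH, a subunit of that chelatase, fell, at -3.45, CRD1, the cyclase, at -3.33, and PORB and PORC, the light-dependent reductases, at -5.28 and -5.34. The late steps that fell deepest were those of light-dependent reduction and chlorophyll b formation. Members that did not pass the test were HEMC, HEMD, HEME1 and CHLD, with log2 fold changes of -0.22, -0.07, 0.21 and -0.19, and CHLG at 0.46. Midday replicate 3 held less than either other midday library at every one of the loci named here. GSA2 and CHLM lost their calls without midday replicate 1, at adjusted p = 0.435 and 0.251.

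**Figure D3:**
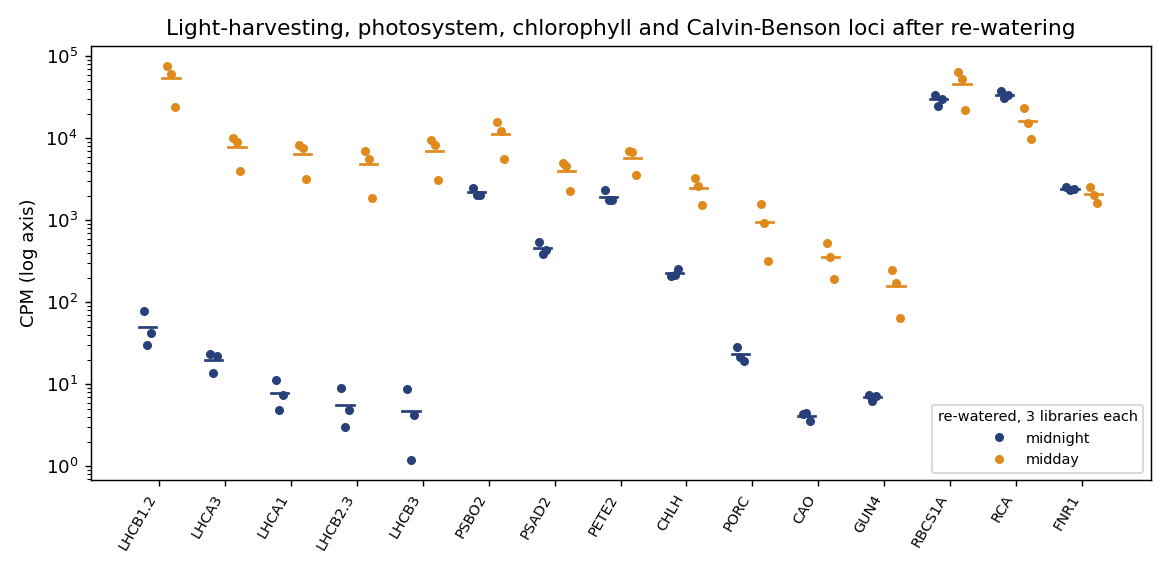
CPM on a log axis of 15 light-harvesting, photosystem, chlorophyll and Calvin-Benson loci after re-watering, each dot 1 library, midnight left of midday, with a bar at the group mean. The antenna loci lie far lower at midnight, PSBO2 and PETE2 less so, and RBCS1A and FNR1 overlap.

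Calvin-Benson loci moved in both directions, with 8 of 15 tested members lower and 2 higher at midnight and a median of -0.71. Of all loci 23.5% were lower and 23.6% higher. CP12-1 and CP12-2, small proteins that lock enzymes of the cycle in the dark, fell, at -1.47 and -1.50. GAPB, of the plastid glyceraldehyde-3-phosphate dehydrogenase, fell, at -1.33 and FBA1, an aldolase, at -0.92. RCA, Rubisco activase, had 37654, 31209 and 33832 CPM at midnight, against 23358, 15278 and 9855 CPM at midday (log2 fold change 1.08 ± 0.30, adjusted p = 0.00395). All 3 midnight libraries lay above the midday ones, but the call was lost when only these 6 libraries were fitted (adjusted p = 0.0655). TKL2, a transketolase, rose by 0.92 and was not called without midday replicate 3 (adjusted p = 0.0609). The Rubisco small subunits RBCS1A and RBCS3B did not pass the test, at -0.64 ± 0.32 and -0.37 ± 0.30, and neither did phosphoribulokinase PRK at 0.23 ± 0.27. Without midday replicate 3 the list had 1 higher and 11 lower members, and with only the 6 re-watered libraries 0 and 6.

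Photorespiration, which recovers carbon from the oxygenase product of Rubisco, was split. Of 12 tested members 3 rose and 3 fell at midnight, a share of called loci near that of all loci. HPR1, hydroxypyruvate reductase, had 2599, 2248 and 2139.8 CPM at midnight, against 1350.0, 1190.0 and 1011 CPM at midday (log2 fold change 0.98 ± 0.19, adjusted p = 0.000167). AGT1, an aminotransferase of the peroxisome, rose by 0.85. PGLP1, phosphoglycolate phosphatase, had 329, 313 and 329 CPM at midnight, against 1439, 1189.6 and 783 CPM at midday (log2 fold change -1.81 ± 0.22, adjusted p = 2.25e-07), while GLYK, glycerate kinase, and SHM1, serine hydroxymethyltransferase, fell, at -1.2 and -0.82. GLDP2, of glycine decarboxylase, rose by 0.74, and its call was lost without midday replicate 1 (adjusted p = 0.0739) or midnight replicate 1. In the photoprotection list 6 of 10 members rose and 1 fell, against 23.6% and 23.5% of all loci. VDE, violaxanthin de-epoxidase, rose by 2.50 and ZEP, which runs the xanthophyll cycle the other way, fell, at -1.23.

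Loci of C4-acid metabolism fell more often than they rose, with 15 of 34 tested members lower and 3 higher at midnight and a median of -0.28. Of all loci 23.5% were lower and 23.6% higher. The 15 include DIC1 to DIC3, whose counts may come from the same transcripts. PPCK1 and PPCK2 are kinases that activate phosphoenolpyruvate carboxylase, at night in CAM plants. PPCK1 had 52.3, 43.6 and 62.3 CPM at midnight, against 30.9, 23.5 and 14.0 CPM at midday (log2 fold change 1.22 ± 0.23, adjusted p = 8.49e-05). At day 0 PPCK1 rose alike, by 1.27, and the test of the difference between the 2 stages gave no call (adjusted p = 0.95). PPCK2 had 13.3, 11.5 and 17.2 CPM at midnight, against 7.64, 3.32 and 4.31 CPM at midday (log2 fold change 1.48 ± 0.29, adjusted p = 0.000123). PPDK, pyruvate phosphate dikinase, which remakes phosphoenolpyruvate, had 2056, 2057 and 2033 CPM at midnight, against 539, 820.3 and 1119 CPM at midday (log2 fold change 1.31 ± 0.37, adjusted p = 0.00482). None of the 3 overlapped between the groups, with midnight above midday, as at 29% of all loci. The carboxylase loci PPC1 and PPC2 did not pass the test. PPC1 had 623, 704 and 511 CPM at midnight and 568, 423 and 392 CPM at midday (log2 fold change 0.41 ± 0.30, adjusted p = 0.27), and PPC2 had a log2 fold change of 0.28 ± 0.27.

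The carriers DIC1 to DIC3 and PPT2 had the deepest decreases in this list. DIC1, a mitochondrial dicarboxylate carrier, had 2.06, 3.11 and 6.80 CPM at midnight, against 198, 316 and 217 CPM at midday (log2 fold change -5.92 ± 0.42, adjusted p = 2.80e-11). DIC2 and DIC3, its relatives, fell, at -5.64 and -5.38. All of the midnight values of DIC1 lay far below the midday values. PPT2 and PPT1, exchangers of phosphoenolpyruvate and phosphate across the plastid envelope, fell, at -3.08 and -2.27. BASS2, the plastid pyruvate importer, fell, at -0.82. The carbonic anhydrases BCA1 and BCA3 fell, at -2.32 and -2.27, with 5293, 2775 and 4927 CPM at midnight and 32429.6, 24601 and 7757 CPM at midday for BCA1. Of the dehydrogenases of malate, cytosolic cMDH1 fell, at -2.21 and mitochondrial mMDH1 at -0.95, while the plastid enzymes NADP-MDH and plNAD-MDH did not pass the test, at -0.15 ± 0.16 and -0.10 ± 0.21. The mitochondrial malic enzymes NAD-ME1 and NAD-ME2 fell, at -0.85 and -0.64, and the isoforms that use NADP did not pass the test, with NADP-ME1 at -0.21 ± 0.18, NADP-ME2 at 0.17 ± 0.17 and NADP-ME4 at -0.13 ± 0.16. PCK1, phosphoenolpyruvate carboxykinase, fell, at -0.66 (adjusted p = 0.0436) and lost that call under upper quartile scaling, limma-trend and the removal of either of 2 midnight or 2 midday libraries.

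The authors' deposited contig table splits loci of gene families into contigs. It gives the authors' mean per group, with no error, for contigs of a Talinum assembly, and the values below are those means. Of the PPC1 contigs, the one with the highest midnight mean, 1155 bases of coding sequence, had a mean of 168 at midnight and 2.33 at midday in the authors' deposited table. A longer one of 2805 bases had 39.7 and 0.333, and one of 1401 bases 7.0 and 35.0. Of 7 PPC1 contigs with a mean of at least 10 at either time, 5 were higher at midnight, 1 of them narrowly, and 2 higher at midday. In well-watered leaves of day 0 the contig of 1155 bases had 66.3 at midnight and 4 at midday. The contigs of 2805 and 1401 bases had 10.7 and 0.333, and 20.7 and 27, at day 0. The main PPC2 contig had 281 at midnight and 350.0 at midday in that table. In the same table GPT1 had 1 such contig, at 26.3 and 23.0, and the main GPT2 contig had 10 at midnight and 889 at midday. DIC1 had 2 such contigs, the larger at midday with 0.667 at midnight and 523 at midday, and DIC2 and DIC3 had none. BAM5 and LHCB2.3 had 1 each and their partners BAM6 and LHCB2.2 none. The counts of such partner loci may come from the same transcripts and are not independent.

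Most transcripts of starch breakdown were lower at midnight. Of 21 tested members, 12 fell and 4 rose at midnight, with a median of -0.71, against 23.5% and 23.6% of all loci falling and rising. The 12 include BAM5 and BAM6, whose counts may come from the same transcripts. LSF1, a glucan-binding phosphatase relative needed for normal breakdown, had 30.8, 27.9 and 26.1 CPM at midnight, against 0.869, 2.17 and 1.72 CPM at midday (log2 fold change 4.11 ± 0.27, adjusted p = 1.98e-12). BAM3, the main plastid beta-amylase of leaves, had 399, 482 and 434 CPM at midnight, against 42.9, 58.6 and 84.3 CPM at midday (log2 fold change 2.82 ± 0.36, adjusted p = 5.34e-07). The catalytically inactive BAM9 and the phosphatase LSF2 rose by 2.35 and 1.16. The groups did not overlap at LSF1 or BAM3, as at 29% of all loci with midnight above.

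MEX1, which exports maltose from the plastid, had 30.3, 22.4 and 27.8 CPM at midnight, against 171, 208 and 199 CPM at midday (log2 fold change -2.85 ± 0.19, adjusted p = 4.30e-12). SEX4, a glucan phosphatase, had 19.3, 15.6 and 16.7 CPM at midnight, against 57.3, 114 and 147 CPM at midday (log2 fold change -2.63 ± 0.24, adjusted p = 1.24e-09). PHS1, the plastid glucan phosphorylase, had 194, 188 and 212 CPM at midnight, against 594, 1170.2 and 1360.2 CPM at midday (log2 fold change -2.39 ± 0.27, adjusted p = 4.13e-08). No midnight value reached the lowest midday value at these 3 loci, as at 26.1% of all loci. BAM5, an amylase outside the plastid, had 6.18, 6.71 and 9.15 CPM at midnight, against 25.2, 209 and 184 CPM at midday (log2 fold change -4.25 ± 0.63, adjusted p = 7.35e-06), and BAM6 gave -4.2 ± 0.59. Midday replicate 1 held far less of both than the other midday libraries, and the BAM5 log2 fold change was -4.74 (adjusted p = 1.27e-07) without it and -4.00 (adjusted p = 6.12e-05) without midday replicate 3. DPE1, the disproportionating enzyme, BAM1, AMY3 and PGLCT, the plastid glucose exporter, fell, at -1.33, -1.30, -0.97 and -0.71. ISA3, a debranching enzyme, and DPE2, which uses maltose in the cytosol, fell, at -0.81 and -0.63, and both lost the call without midday replicate 3, at adjusted p = 0.0925 and 0.0629. The kinases that phosphorylate starch, GWD1 and PWD, did not pass the test, at -0.31 ± 0.25 and -0.15 ± 0.21, nor did the cytosolic phosphorylase PHS2 at -0.67 ± 0.29.

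Starch synthesis fell in 9 of 15 tested members and rose in 3, against 23.5% and 23.6% of all loci, with a median of -1.23. PGM1, the plastid phosphoglucomutase that feeds starch synthesis, had 16.1, 13.4 and 13.7 CPM at midnight, against 351, 591 and 561 CPM at midday (log2 fold change -5.12 ± 0.23, adjusted p = 1.35e-15). APL4, a large subunit of ADP-glucose pyrophosphorylase, had 65.6, 67.9 and 84.8 CPM at midnight, against 544, 1258 and 1638 CPM at midday (log2 fold change -3.98 ± 0.40, adjusted p = 7.58e-09). GBSS1, the amylose synthase, fell, at -3.21, APL2 at -2.62, PGI1 at -2.56 and SS3 at -1.99. SS4, which starts granules, and the debranching enzymes ISA1 and ISA2 rose by 1.74, 1.25 and 1.01. No midnight value of PGM1 or APL4 reached the midday range, as at 26.1% of all loci.

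In the sucrose list 4 of 13 tested members rose and 4 fell, against 23.6% and 23.5% of all loci. The sucrose-phosphate synthases SPS1F, SPS2F and SPS4F, which make sucrose in the cytosol, rose by 1.69, 1.41 and 1.81, with 202, 219 and 224 CPM at midnight and 53.7, 51.7 and 94.2 CPM at midday for SPS1F. F2KP, which sets the fructose-2,6-bisphosphate level, rose by 1.43. GPT2, a glucose-6-phosphate translocator of the plastid, had 13.7, 12.1 and 12.6 CPM at midnight, against 61.7, 441 and 817 CPM at midday (log2 fold change -5.10 ± 0.60, adjusted p = 2.97e-07). GPT1 had 40.2, 42.8 and 37.9 CPM at midnight, against 67.6, 496 and 912 CPM at midday (log2 fold change -3.61 ± 0.52, adjusted p = 5.04e-06). The midnight libraries were close to each other and the midday ones spread widely, with replicate 1 nearest to midnight. Without midday replicate 1 the log2 fold changes were -5.62 (adjusted p = 3.97e-11) for GPT2 and -4.13 (adjusted p = 4.46e-11) for GPT1, and without replicate 3 -4.30 (adjusted p = 1.29e-06) and -2.81 (adjusted p = 3.5e-05). SUC2, the phloem sucrose loader, fell, at -1.35 and was not called without midday replicate 3 (adjusted p = 0.899) or midnight replicates 1 or 3. In the list of dark and sugar starvation responses, which was drawn up for transcripts induced by darkness or low sugar, 6 of 14 members rose and 5 fell. TPS10 and TPS9, of the trehalose-phosphate synthase family, rose by 1.25 and 0.96, while DIN1, a senescence marker of the chloroplast, and DIN10, a raffinose synthase relative, fell, at -2.01 and -1.38.

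**Figure D4:**
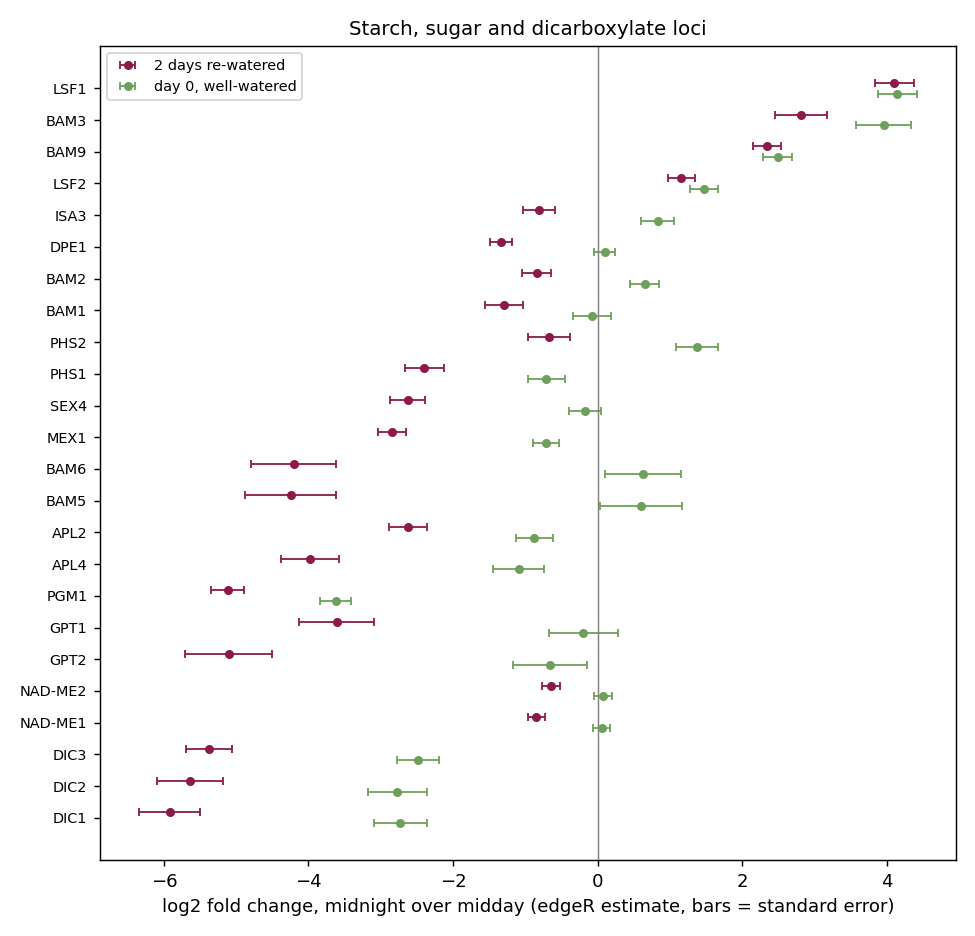
Log2 fold change of midnight over midday with its standard error for 24 starch, sugar and dicarboxylate loci, re-watered plants above well-watered plants of day 0 in each row. LSF1, BAM9 and LSF2 nearly coincide, whereas BAM5, GPT2, SEX4, MEX1 and the DIC loci lie further to the left after re-watering.

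Nitrogen and sulfur assimilation fell in 8 of 14 tested members and rose in 3, against 23.5% and 23.6% of all loci. NIA2, nitrate reductase, had 41.0, 38.0 and 92.0 CPM at midnight, against 1051, 513 and 331 CPM at midday (log2 fold change -3.47 ± 0.74, adjusted p = 0.000485), and NIA1 fell, at -3.60. APR1 and APR2, which reduce activated sulfate, fell, at -1.92 and -1.8, and LBD38 and LBD39, nitrate-induced repressors of nitrogen genes, at -2.31 and -2.01. GLU1, ferredoxin-dependent glutamate synthase, had 4833, 4382 and 4955 CPM at midnight, against 2154, 1909 and 2289 CPM at midday (log2 fold change 1.16 ± 0.22, adjusted p = 0.000105). GLN1;2, a cytosolic glutamine synthetase, rose by 0.73. The groups did not overlap at NIA2 or GLU1, as at 26.1% of all loci with midnight below and 29% with midnight above.

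Flavonoid and phenylpropanoid synthesis rose, with 9 of 12 tested members higher and none lower at midnight and a median of 1.31. Over all loci, 23.6% were higher and 23.5% lower. FLS1, flavonol synthase, had 65.6, 72.7 and 74.3 CPM at midnight, against 5.04, 8.08 and 13.2 CPM at midday (log2 fold change 2.98 ± 0.27, adjusted p = 1.16e-09). F3H, flavanone 3-hydroxylase, rose by 1.66, C4H, of the general phenylpropanoid path, by 1.09, and MYB111, an activator of flavonol genes, by 2.21. CHS, the entry enzyme, had 410.3, 423 and 417 CPM at midnight and 15.3, 70.7 and 314 CPM at midday (log2 fold change 1.64 ± 0.59, adjusted p = 0.0263), with midday replicate 3 far above the other midday libraries. CHS was called without midday replicate 3, at 3.27 (adjusted p = 5.07e-05), and not without replicate 1, at 1.11 (adjusted p = 0.0731). The list had 11 higher members without midday replicate 3, and 6 without replicate 1 and likewise without replicate 2.

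DNA replication and cell division fell in 11 of 14 tested members and rose in none, against 23.5% and 23.6% of all loci. MCM2, of the replicative helicase, had 2.06, 2.52 and 3.58 CPM at midnight, against 68.8, 41.0 and 8.25 CPM at midday (log2 fold change -3.83 ± 0.57, adjusted p = 7.72e-06). MCM7, a second helicase subunit, had 1.8, 0.838 and 0.494 CPM at midnight, against 36.0, 22.5 and 5.29 CPM at midday (log2 fold change -4.31 ± 0.57, adjusted p = 1.19e-06), and MCM3, MCM4, MCM5 and MCM6 fell, at -4.36, -3.80, -3.31 and -4.12. The mitotic cyclin CYCB2;1 fell, at -4.35. Midday replicate 3 held the lowest midday value at each MCM locus, yet above all midnight values. Midnight lay wholly below midday at 26.1% of all loci. Without midday replicate 3, 10 members were called.

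Ribosomal protein loci were mostly near equal at both times. Of 261 tested, 22 rose and 37 fell at midnight, below the share of all loci in both directions, with a median of -0.03. At day 0, in contrast, 6 rose and 172 fell, with a median of -0.70. The difference, re-watered minus day 0, was called positive at 15 and negative at 3, against 1.98% and 4.28% of all loci. The split after re-watering depended on the midday libraries: without replicate 3 it was 7 higher and 54 lower, and without replicate 1 32 and 29. It was 19 and 40 under RLE scaling and 23 and 35 under upper quartile scaling.

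Among stress-related lists, 4 of 21 members of the abscisic acid and drought list rose and 9 fell at midnight. For this and the lists that follow, 23.6% of all loci rose and 23.5% fell. The share of aquaporins called was near the 47.1% of all loci. P5CS1, which makes proline, had 49.3, 44.3 and 50.8 CPM at midnight, against 262, 221 and 186 CPM at midday (log2 fold change -2.21 ± 0.21, adjusted p = 3.03e-09). PYL9, an abscisic acid receptor, and ABI1, a phosphatase that the receptors inhibit, rose by 1.65 and 1.0. GOLS1, of galactinol synthesis, fell, at -1.86 and OST1, a kinase of the pathway, at -0.59. Of 17 heat shock and chaperone loci 8 fell and 2 rose. BIP1 and BIP2, chaperones of the endoplasmic reticulum, fell, at -3.34 and -3.24, with 21.1, 22.5 and 24.6 CPM at midnight and 178, 258 and 257 CPM at midday for BIP1. Among 9 antioxidant loci 5 fell and none rose, among them the ascorbate peroxidases TAPX and SAPX of the chloroplast, at -2.98 and -2.66. Of 10 aquaporins 5 fell and none rose, the tonoplast channels TIP1;2 and TIP1;1 at -1.88 and -1.73, and 3 were called in the fit of the 6 libraries alone. In the cell wall list 4 of 9 members rose and 2 fell. The expansin EXPA5, which loosens walls, rose by 2.80, while the germin-like loci GER3 and GLP1 fell, at -4.83 and -4.34, with 39.8, 33.1 and 76.4 CPM at midnight and 2224, 1597 and 422 CPM at midday for GER3.

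Markers of single leaf cell types were measured at both times, and 23.6% of all loci were higher and 23.5% lower at midnight. All 3 tested epidermis markers were higher at midnight: FDH, of cuticle lipid synthesis, by 0.98, CER5, a wax exporter, by 1.1, and PDF2, a homeodomain factor, by 0.65. The PDF2 call was lost without midday replicate 1 (adjusted p = 0.059) or replicate 2. The summed level of these markers, 3 of 7 listed, was 582, 608 and 591 CPM at midnight, against 310.3, 285 and 308 CPM at midday. Of 7 guard cell markers 1 rose and 2 fell, and their summed level was 68.9, 62.9 and 73.8 CPM at midnight, against 77.5, 73.2 and 74.4 CPM at midday. Of 9 vascular markers 4 fell and none rose, SUC2 and the cellulose synthases of the secondary wall IRX3, IRX5 and IRX1. The summed level of the 9 was 808, 976 and 843 CPM at midnight, against 872, 1065 and 1624 CPM at midday. These ranges overlapped, and the highest sum was that of midday replicate 3. The SUC2 call was lost without midday replicate 3 or midnight replicates 1 or 3. The IRX5 call was lost under 2 and the IRX1 call under 9 alternatives. No tested marker of the 3 lists was at 0 in a re-watered library. Their part in the results above was not tested. Of the 2 tested defence and wounding markers, LOX2, which starts jasmonate synthesis, fell, at -2.77 and JAZ1 did not pass the test, at -0.30 ± 0.28.

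Most calls after re-watering had the direction of well-watered leaves at day 0. There, 6175 loci (43.9%) were called. Of the loci called after re-watering, 4098 were called in the same direction at day 0, which is 61.9% of the re-watered calls and 66.4% of the day 0 calls, and 78 in the opposite one. Over 14052 loci the log2 fold changes of the 2 stages, which share no library, correlated at r = 0.769. The difference itself, re-watered minus day 0, was called at 879 loci (6.26%), 278 positive (1.98%) and 601 negative (4.28%). At 292 of these the re-watered fold change was larger in the same direction, at 120 smaller, and at 467 the sign differed. The positive and negative counts were 401 and 475 under upper quartile scaling, and the total was 162 with only the 4 groups concerned in the fit. Leaving out 1 library gave 407 to 1716 calls. The lowest count came without day 0 midday replicate 1, and the highest without re-watered midday replicate 1. Higher counts also came without day 0 midnight replicate 3 (1511) or day 0 midday replicate 2 (1618), and lower counts without re-watered midnight replicates 1 (469) or 3 (525) or midday replicates 2 (534) or 3 (479).

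**Figure D5:**
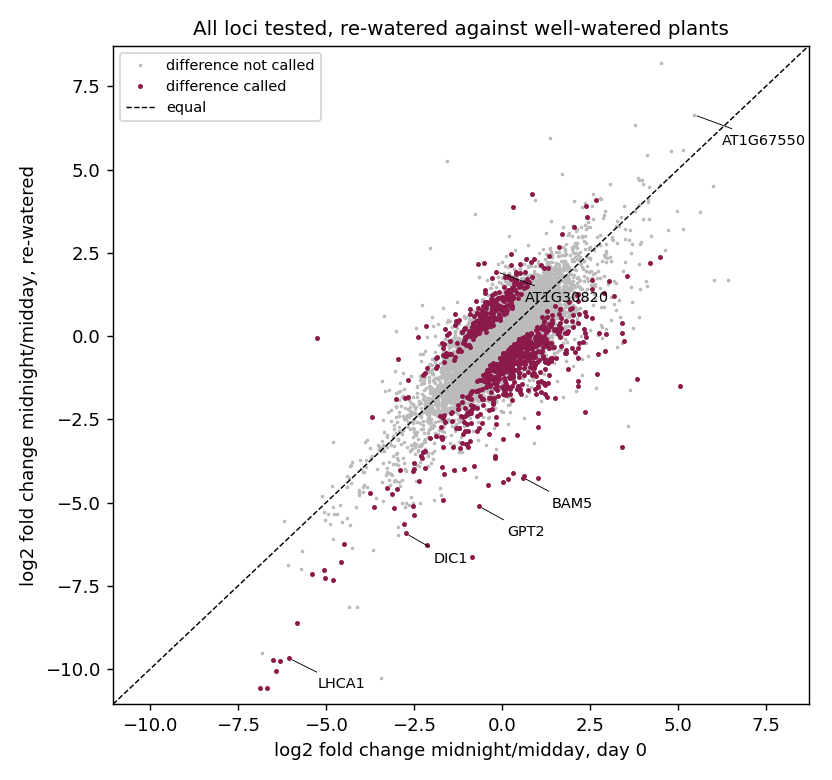
Log2 fold change of midnight over midday at all 14052 loci, re-watered plants on the vertical axis and day 0 plants on the horizontal, with loci whose difference was called in dark red and the line of equality dashed. BAM5, GPT2, DIC1 and LHCA1 lie below the line, and AT1G30820 above it.

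In the starch breakdown list 13 of 21 members were negative in this comparison and none positive, against 4.28% of all loci negative. The 13 include BAM5 and BAM6, whose counts may come from the same transcripts. BAM5 had 34.0, 54.4 and 24.7 CPM at midnight and 15.6, 21.8 and 37.0 CPM at midday at day 0, where it was not called (log2 fold change 0.60 ± 0.56, adjusted p = 0.408), and its difference of log2 fold changes, re-watered minus day 0, was -4.85 ± 0.84, adjusted p = 0.00131. BAM6 had a difference of -4.84 ± 0.78, adjusted p = 0.000853. The midday values after re-watering exceeded those of day 0 at BAM5 in 2 of the 3 libraries. SEX4 was near equal at day 0, with 51.7, 54.8 and 71.6 CPM at midnight and 56.5, 71.3 and 73.5 CPM at midday, and had a difference of -2.45 ± 0.32, adjusted p = 0.000124. MEX1 had 69.2, 65.3 and 120.0 CPM at midnight and 137, 127 and 152 CPM at midday at day 0 and had a difference of -2.14 ± 0.26, adjusted p = 5.08e-05. DPE1, BAM2, ISA3 and PHS1 had differences of -1.43, -1.50, -1.64 and -1.68. PHS2 had 905, 730.2 and 684 CPM at midnight and 249.9, 384 and 259 CPM at midday at day 0, higher at midnight (log2 fold change 1.38 ± 0.29, adjusted p = 0.000429), and had a difference of -2.05 ± 0.41, adjusted p = 0.00375. PGLCT had a difference of -0.97. LSF1, BAM3, BAM9 and LSF2 were not called different. The differences of PHS1, PHS2 and PGLCT lost their calls in the fit of the 4 groups alone, at adjusted p = 0.0559, 0.0905 and 0.0905. In that fit 7 members of the list were negative. The list had 13 negative members without re-watered midday replicate 1 and 10 without replicate 3.

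GPT2 had 72.7, 49.4 and 23.4 CPM at midnight and 62.4, 106 and 61.4 CPM at midday at day 0 and a difference of -4.45 ± 0.76, adjusted p = 0.00119, and GPT1, whose counts may include those of GPT2, a difference of -3.41 ± 0.69, adjusted p = 0.00493. AT4G03950, annotated as a nucleotide or sugar transporter, had 0.258, 0.359 and 0.494 CPM at midnight and 3.47, 40 and 71.9 CPM at midday after re-watering, and its difference was -5.80 ± 1.14, adjusted p = 0.00418. Without re-watered midday replicate 1 that difference was -6.33 (adjusted p = 5.49e-07), and without replicate 3 -4.98 (adjusted p = 0.00942). Of 15 starch synthesis members 3 were called, all negative: APL4 at -2.89 ± 0.51, adjusted p = 0.00119, APL2 at -1.75 and PGM1 at -1.49. That count was 5 negative and 1 positive without re-watered midday replicate 1, and 5 negative without day 0 midnight replicate 3 or day 0 midday replicate 2. In the fit of the 4 groups alone GPT2, GPT1, AT4G03950 and APL2 lost their calls, at adjusted p = 0.054, 0.103, 0.0802 and 0.0711. In the C4-acid list 6 of 34 members were negative and none positive, against 4.28% of all loci negative. The 6 include DIC1 to DIC3, whose counts may come from the same transcripts. DIC1 had 12.3, 11 and 6.92 CPM at midnight and 49.3, 78.4 and 72.6 CPM at midday at day 0, with a difference of -3.19 ± 0.53, adjusted p = 0.000853, while DIC2 and DIC3 had differences of -2.87 and -2.89. NAD-ME1, the mitochondrial malic enzyme, was near equal at day 0, with 129, 136 and 146 CPM at midnight and 119, 139.6 and 134 CPM at midday, and had a difference of -0.91 ± 0.17, adjusted p = 0.00168. NAD-ME2 had a difference of -0.72, not called in the fit of the 4 groups alone (adjusted p = 0.127).

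Of the photosystem list 9 of 33 members were negative and none positive, against 4.28% and 1.98% of all loci. All 9 were antenna loci, and they include LHCB2.2 and LHCB2.3, whose counts may come from the same transcripts. LHCA1 had 196, 73.6 and 108 CPM at midnight and 8536, 6963 and 9480.2 CPM at midday at day 0, with a difference of -3.63 ± 0.58, adjusted p = 0.000575. At LHCA1 the 3 day 0 midnight values lay above all re-watered midnight values, while the midday ranges overlapped, and the 2 midnights were not tested against each other. LHCB1.2 had 1646, 477 and 735 CPM at midnight at day 0 and a difference of -3.65 ± 0.83, adjusted p = 0.0103. LHCB2.3, LHCA3, LHCB5 and LHCA2 had differences of -3.46, -2.80, -2.53 and -1.95, and AT5G28450, outside the list, one of -2.23. In the fit of the 4 groups alone 4 members of the list were negative. LHCB5, LHCA2, LHCB3, LHCA4 and LHCB2.2 lost their calls there, at adjusted p = 0.106, 0.0781, 0.126, 0.0781 and 0.0715. The last 3 also lost them without re-watered midnight replicates 2 or 3, day 0 midnight replicate 1 or day 0 midday replicate 1, and LHCB3 also without re-watered midday replicate 2. Without day 0 midnight replicate 1 the differences of LHCB3, LHCA4 and LHCB2.2 were -2.44, -2.63 and -2.52. Of the clock, LNK2 had a difference of -1.74 ± 0.47, adjusted p = 0.0254, lost under 5 of 21 alternatives. GI had one of -1.25 ± 0.26, adjusted p = 0.00559 and CHE one of 1.05 ± 0.25, adjusted p = 0.0132, and both lost the call in the fit of the 4 groups alone, at adjusted p = 0.0814 and 0.0702.

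The most positive differences under the naming rule included AT1G30820 and AT4G20320, loci of CTP synthase, which makes cytidine nucleotides. AT1G30820 had 46.4, 57.2 and 51.3 CPM at midnight and 21.7, 10.1 and 9.24 CPM at midday after re-watering, and 31.7, 20.4 and 21.3 CPM at midnight and 32.9, 23.5 and 25.7 CPM at midday at day 0, a difference of 2.1 ± 0.34, adjusted p = 0.000654. AT4G20320 had a difference of 2.04 ± 0.32, adjusted p = 0.000545. Of the contigs matched to these loci in the authors' deposited contig table, those with a re-watered mean of at least 10 matched AT1G30820. AT5G23060, the calcium sensing receptor of the thylakoid, had a difference of 2.01 ± 0.42, adjusted p = 0.00554. AT5G51110, annotated as a transcriptional coactivator, and AT1G66960, a terpenoid cyclase, had differences of 2.26 and 1.87, and lost their calls under 11 and 10 of 21 alternatives. Besides BAM5, BAM6 and AT4G03950, the most negative were AT5G38910, a cupin protein, at -4.62 ± 0.87, adjusted p = 0.00285, and AT1G02360, a chitinase, at -4.45 ± 1.11, adjusted p = 0.0186. The libraries of both loci were uneven. AT5G38910 had 47.1, 51.4 and 35.7 CPM at midnight and 23.6, 65.2 and 555 CPM at midday after re-watering, and without re-watered midday replicate 3 its difference was -2.35 (adjusted p = 0.00188) and its re-watered fold change was no longer negative. AT1G02360 had 5.54, 2.63 and 4.82 CPM at midnight and 56.3, 115 and 83.2 CPM at midday after re-watering, and 36.3, 96.4 and 214 CPM at midnight and 143, 47.6 and 119.9 CPM at midday at day 0. It lost its call when re-watered midday replicate 3 and day 0 midnight replicate 3 were both left out.

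Against day 12, the last day of drought, the midnight-midday difference had changed at 3707 loci (26.4%), 1962 positive (14%) and 1745 negative (12.4%). At day 12 itself 7686 loci (54.7%) were called, 3823 (27.2%) higher and 3863 (27.5%) lower at midnight. The calls shared in direction numbered 4190, which is 63.3% of the re-watered calls and 54.5% of the day 12 calls, 338 were opposite, and the log2 fold changes correlated at r = 0.634 over loci. Where the difference was called, the re-watered fold change was smaller in the same direction at 1505 loci and larger at 472, and the sign differed at 1730.

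The dicarboxylate carriers and P5CS1 had smaller fold changes than on day 12. DIC1 had 1.42, 1.08 and 1.44 CPM at midnight and 802, 920.2 and 865 CPM at midday on day 12, where its log2 fold change was -9.33 ± 0.50, and the difference, re-watered minus day 12, was 3.41 ± 0.61, adjusted p = 0.000186. DIC2 and DIC3 had differences of 3.63 and 4.50, so that the fold change of all 3 after re-watering lay between those of day 0 and day 12. P5CS1 had 66.9, 34.1 and 72.7 CPM at midnight and 2169, 2015 and 1986 CPM at midday on day 12 and had a difference of 2.94 ± 0.30, adjusted p = 8.59e-08. In the C4-acid list 12 of 34 members were positive and 3 negative, against 14% and 12.4% of all loci. The 12 include DIC1 to DIC3, whose counts may come from the same transcripts.

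ELIP1, an early light-induced protein of the thylakoid, had 8.24, 13.8 and 11.6 CPM at midnight and 13.2, 20.1 and 54.2 CPM at midday after re-watering, against 6.21, 29.6 and 10.9 CPM at midnight and 4302, 5274 and 3702 CPM at midday on day 12, a difference of 6.76 ± 0.87, adjusted p = 5.66e-06. AT5G48000, a cytochrome P450, AT1G06460, an alpha-crystallin domain protein, and AT3G43670, a copper amine oxidase, had differences of 7.23, 5.76 and 5.62 from day 12, and none of the 3 passed the test after re-watering.

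Among the most negative differences from day 12 were those of transporters of the major facilitator family. AT5G62730 had 1.93, 0.838 and 1.36 CPM at midnight and 41.7, 34.8 and 13.3 CPM at midday after re-watering, against 2.72, 2.29 and 3.45 CPM at midnight and 0.188, 0.452 and 0.159 CPM at midday on day 12, a difference of -7.72 ± 0.92, adjusted p = 1.82e-06. AT1G27040 had a difference of -7.59 ± 0.90, adjusted p = 1.49e-06. Both were below 4 CPM in every day 12 library. AT5G50360, with no annotation in the table, AT1G78440, a gibberellin 2-oxidase, and AT5G41080, a phosphodiesterase, had differences of -7.64, -6.22 and -5.61. AT5G50360 and AT5G41080 did not reach 4 CPM in any re-watered library, and the AT1G78440 call was lost without day 12 midnight replicate 3. The replication locus MCM5 had a difference of -5.29 ± 0.85, adjusted p = 8.17e-05. The expansin EXPA15 had 35.1, 46.0 and 53.5 CPM at midnight and 0.564, 0.452 and 0.953 CPM at midday on day 12, and its difference was -4.51 ± 0.78, adjusted p = 0.000138. In this comparison 8 of the 9 cell wall loci were negative, against 12.4% of all loci.

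LSF1, ELF4 and RVE2 had larger midnight increases than on day 12. LSF1 had 21.1, 29.2 and 20.4 CPM at midnight and 12.8, 10.1 and 16.5 CPM at midday on day 12 and had a difference of 3.26 ± 0.34, adjusted p = 1.67e-07. ELF4 had 0.259, 1.93 and 1.44 CPM at midnight and 0.564, 0.753 and 0.477 CPM at midday on day 12 and had a difference of 4.43 ± 0.96, adjusted p = 0.00118, and RVE2 by 2.01 ± 0.51, adjusted p = 0.00464. BAM9 went the other way, at -1.87 ± 0.27, adjusted p = 1.07e-05. FLS1 had 10.2, 20.5 and 11 CPM at midnight and 12.6, 11.1 and 17.2 CPM at midday on day 12, with no call there, and had a difference of 2.96 ± 0.38, adjusted p = 3.34e-06. In the flavonoid list 7 of 12 members were positive and none negative, against 14% and 12.4% of all loci.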

How the data were processed

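Talinum triangulare leaf libraries were made from polyA RNA and read as single ends, per the labels. The authors deposited whole-number counts per Arabidopsis locus, from the best BLAT hit of each read against TAIR10 proteins, per the file headers, and the submitters' processing notes name CASAVA 1.8.2 and DESeq2. The authors also deposited their mean values per group for each contig, treated as a score because its unit is not given in the sources used here.

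Counts of 30 libraries in 10 groups were filtered (filterByExpr), scaled by TMM and fitted with robust quasi-likelihood models in edgeR 4.0.16 under R 4.3.3, and 14052 of 21869 loci were tested. Each p-value was adjusted by the Benjamini-Hochberg method over all of them and calls were made below 0.05. Errors after a log2 fold change are standard errors. The scripts were tested on simulated data. The re-watered libraries held 6627526 to 8137123 counts.

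Named loci were taken by a rule: the 12 largest increases and 12 largest decreases with separate groups and at least 10 CPM, the 5 largest of each in CPM, the called clock members, up to 4 called members per direction of each other list, and the 5 most positive and 5 most negative differences from day 0 and from day 12 with their called list members. One locus that the rule took is not reported here. Others are given for their place in a list. The members and lists were chosen with earlier results of these data known. Replicate numbers did not pair the libraries (correlations of deviations 0.15, -0.12 and -0.03). Alternatives were DESeq2 1.42.0, limma-trend (limma 3.58.1), scaling by RLE or upper quartile, other filters and thresholds, a replicate block, only the groups compared, and each library left out. Among columns of the deposited tables, 30 with values per sample were not used. 6 samples have no column used here and were not analysed.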

Additional observations from a re-analysis of the deposited data

Results flagged for a closer look

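The midnight-midday fold change after re-watering differed from that of day 0 at 879 loci and from that of day 12 at 3707 loci, each by the test of the difference itself. Groups of 3 libraries were too small for the check of single outlying samples. The values below are differences of log2 fold changes, and no explanation of them was tested.

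Against day 0, antenna loci were negative: LHCB1.2 at -3.65, LHCA1 at -3.63, LHCB2.3 at -3.46, LHCA3 at -2.80, LHCB5 at -2.53, AT5G28450 at -2.23 and LHCA2 at -1.95. Starch breakdown loci were negative as well: BAM5 at -4.85, BAM6 at -4.84, SEX4 at -2.45, MEX1 at -2.14, PHS2 at -2.05, PHS1 at -1.68, ISA3 at -1.64, BAM2 at -1.50, DPE1 at -1.43 and PGLCT at -0.97. Of starch synthesis and sugar transport, APL4 was at -2.89, APL2 at -1.75, PGM1 at -1.49, GPT2 at -4.45, GPT1 at -3.41 and AT4G03950 at -5.80. DIC1, DIC2 and DIC3 were at -3.19, -2.87 and -2.89, and NAD-ME1 and NAD-ME2 at -0.91 and -0.72. Of the clock, GI was at -1.25, LNK2 at -1.74 and CHE at 1.05. The positive loci were AT5G51110 at 2.26, AT1G30820 at 2.1, AT4G20320 at 2.04, AT5G23060 at 2.01 and AT1G66960 at 1.87. AT5G38910 and AT1G02360 were at -4.62 and -4.45.

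Against day 12, the positive loci were AT5G48000 at 7.23, ELIP1 at 6.76, AT1G06460 at 5.76, AT3G43670 at 5.62, DIC3 at 4.50, DIC2 at 3.63, DIC1 at 3.41, ELF4 at 4.43, LSF1 at 3.26, FLS1 at 2.96, P5CS1 at 2.94 and RVE2 at 2.01. The negative ones were AT5G62730 at -7.72, AT5G50360 at -7.64, AT1G27040 at -7.59, AT1G78440 at -6.22, AT5G41080 at -5.61, MCM5 at -5.29, EXPA15 at -4.51 and BAM9 at -1.87.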

How the results depend on the processing

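The count of 6618 loci called after re-watering stayed within 1.5 times under the other scalings, DESeq2, limma-trend, both filters, an adjusted p under 0.01, only the groups compared and the replicate block (6605). It was 2989 with a log2 change of at least 1, and 5494 to 6317 with 1 library left out. At day 0 the count was 2685 with a log2 change of at least 1, 3695 with only the groups compared and 5147 to 6129 with 1 library left out, and at day 12 it was 4067 with that minimum and 6953 to 7161. The difference from day 0, called at 879 loci, was called at 252 under an adjusted p of 0.01, 542 with a log2 change of at least 1, 162 with only the groups compared, 812 with the replicate block and 407 to 1716 with 1 library left out. The difference from day 12, called at 3707 loci, was called at 2137 under an adjusted p of 0.01, 2200 with a log2 change of at least 1 and 3146 to 3758 with 1 library left out. One named locus turned round: AT5G38910 after re-watering was at 0.00165 without midday replicate 3, within a range of -2.793 to 0.00165 over the left-out libraries. The cause was not tested.

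Depth limits loci near 0.369 to 0.453 CPM, the level of 3 counts in a re-watered library. The count of 879 rests on 3 libraries per group, and 1 library moved it by more than 1.5 times in either direction.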
